A study of Homo sapiens with 3 samples.

Results

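The miR-193 and miR-365 miRNAs come from a pair of paralogous clusters, MIR193B with MIR365A on chromosome 16 and MIR193A with MIR365B on chromosome 17. The 5 members examined were hsa-miR-193b-3p, hsa-miR-193b-5p, hsa-miR-193a-5p, hsa-miR-193a-3p and hsa-miR-365a-3p, chosen by name from a table of 1149 mature human miRNAs. The species prefix is left out below. Of these, 4 had a row under their own name. The row of miR-365a-3p is shared with miR-365b-3p, which has the same sequence, so its value sums the product of both clusters and is written miR-365a/b-3p here. The other arms of the miR-365 hairpins, miR-365a-5p and miR-365b-5p, are not members and are given beside them because each belongs to 1 cluster only.

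Mature miRNAs were counted by small RNA sequencing of total RNA from clones of CAL-27, a widely used cell line derived from a human tongue carcinoma of squamous type. The 3 groups had 1 library each. RR was the radioresistant group, exposed to 2 Gy of X-rays each day in 2 cycles of 5 days, with 2 weeks of recovery after either cycle, before clones were grown from single cells. The library labelled Mock is described in the design text as mock-treated and, in the same place, as having received 2 Gy in a single exposure, and CC was the untreated control. All groups descend from the parental line. The sources used here do not say whether a library held 1 clone or several. The treatment tags read Gy2 for RR, IR for Mock and Ctrl for CC, so that the tag with a dose stands on RR and the tag for irradiation without a dose on Mock. Directions below refer to the libraries as labelled. As each group is a lone library, differences have no replicate check and carry no p-value.

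A mature miRNA guides Argonaute proteins to messenger RNAs that pair with its seed, and either arm of a hairpin can be loaded. miR-193a-3p and miR-193b-3p share a seed and are known to repress cyclin D1 (CCND1) and the survival factor MCL1, and miR-193b-3p also the urokinase gene PLAU. miR-365-3p is known to repress CCND1 as well. miR-193a-5p is known to repress TP73, a relative of p53, in squamous carcinoma cells, and MIR193A has been described as silenced by DNA methylation in oral cancer lines. In mouse the chromosome 16 type of cluster has been described as taking part in brown fat differentiation, which is not settled.

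The mature sequences are shown because they decide which reads can be told apart. They are those of RefSeq on GRCh38.p14, and all 8 equalled the sequences in the deposited table. Each is written 5′ to 3′ with its seed, bases 2 to 8, in capitals.
miR-193b-3p: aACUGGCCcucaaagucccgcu
miR-193a-3p: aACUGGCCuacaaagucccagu
miR-193b-5p: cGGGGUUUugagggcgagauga
miR-193a-5p: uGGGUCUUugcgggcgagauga
miR-365a-3p and miR-365b-3p: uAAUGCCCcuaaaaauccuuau
miR-365a-5p: aGGGACUUuugggggcagaugug
miR-365b-5p: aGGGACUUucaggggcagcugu

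The 3p arms of miR-193a and miR-193b had the same seed and differed at 4 of 22 bases (U9C, A10U, A20G and G21C, with the base of miR-193a first and positions counted from the 5′ end). Their 5p arms also differed at 4 of 22 bases (U1C, U5G, C6U and C11A), of which U5G and C6U lie inside the seed, so that the 5p arms do not share one. The 5p arms of miR-365a and miR-365b shared a seed and differed at 3 of the 22 bases compared (U10C, G11A and A19C). No other listed miRNA lay within 2 mismatches of any of the 7 rows. Apart from these pairs, no listed miRNA shared a seed with them.

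The hairpins of MIR193B and MIR193A are shown to place the arms that were counted, which are in capitals.
MIR193B: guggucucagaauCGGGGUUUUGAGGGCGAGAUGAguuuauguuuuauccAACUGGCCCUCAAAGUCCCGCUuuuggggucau
MIR193A: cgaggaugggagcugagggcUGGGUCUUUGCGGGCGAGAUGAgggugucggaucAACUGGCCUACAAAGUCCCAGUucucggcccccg

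MIR193B lies at chr16:14303967-14304049 and MIR365A at chr16:14309285-14309371, both on the plus strand of GRCh38, with 5235 bases between them. In GENCODE release 29 both fall inside the long non-coding RNA gene MIR193BHG and overlap none of its exons. MIR193A lies at chr17:31559996-31560083 and MIR365B at chr17:31575411-31575521, also on the plus strand, with 15327 bases between them. The MIR193A hairpin overlapped no other gene in that annotation, and MIR365B overlapped an exon of the long non-coding RNA gene AC003101.1.

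The libraries held 10473400 reads in RR, 10632785 in Mock and 10769990 in CC. Levels are in rpm, reads per 1000000 reads of that total. Listed miRNAs took 20.5% of the reads in RR (Wilson 95% interval 20.48% to 20.53%), 23.2% in Mock (23.14% to 23.19%) and 16.3% in CC (16.23% to 16.28%). All 4 squamous epithelial markers were found in each library. miR-205-5p stood at 29651 rpm in RR, 14174 rpm in Mock and 25945 rpm in CC, and was thus lowest in Mock like the miR-193b arms. miR-200c-3p was at 14183, 13918 and 11739 rpm in the same order, miR-203a-3p at 39.2, 23.7 and 22.8 rpm and miR-141-3p at 23.9, 34.4 and 16.6 rpm. The Mock library stood apart in erythroid markers, in the few reads of leukocyte markers and, among the muscle markers, in miR-206 alone. The 3 erythroid markers summed to 12.2 rpm in RR, 408 rpm in Mock and 9.47 rpm in CC, with miR-144-3p at 0 in RR and in CC. The 3 muscle markers summed to 408 rpm in RR, 345 rpm in Mock and 341 rpm in CC, with miR-206 at 3.63, 25.5 and 1.76 rpm in that order. miR-1-3p, at 404, 319 and 338 rpm, and miR-133a-3p, at 0.859, 0.658 and 1.02 rpm, were lowest in Mock. Of the leukocyte markers 3 of 4 were listed, at a sum of 0.0955 rpm in RR, 1.98 rpm in Mock and 0.0929 rpm in CC. In Mock these were 8 reads of miR-142-3p, 5 of miR-142-5p and 8 of miR-150-5p. Of the 5 endothelial or mesenchymal markers 4 were listed, at a sum of 89.6 rpm in RR, 73.5 rpm in Mock and 61.9 rpm in CC. Most of that sum was miR-126-3p, at 80.5, 65.8 and 53.9 rpm. miR-143-3p, at 6.30, 4.42 and 5.76 rpm, and miR-145-5p, at 0.191, 0.0940 and 0.464 rpm, were lowest in Mock. miR-199a-3p, at 2.58, 3.20 and 1.86 rpm, was highest there. The hepatic marker miR-122-5p stood at 2.96, 5.45 and 4.46 rpm in the same order. The part of other cells in the results for Mock was not tested.

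The 5 members were of middle to low abundance. Summed, they came to 168 rpm in RR, 103 rpm in Mock and 162 rpm in CC, or 0.0821%, 0.0443% and 0.0994% of the miRNA reads in that order. By mean level over the libraries, miR-365a/b-3p ranked 110th and miR-193b-3p 113th of 1149, miR-193b-5p 167th and miR-193a-5p 170th. miR-193a-3p was next to absent. Intervals given with a level are exact 95% Poisson intervals of its reads and cover counting error only, since PCR copies of a molecule were counted as separate reads.

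miR-193b-3p, the arm of its hairpin with more reads and the source of nearly all reads with the miR-193 seed here, was lowest in Mock. On the scale as deposited it was close in RR and CC. It stood at 61.5 rpm in RR (56.8 to 66.4, from 644 reads), 26.4 rpm in Mock (23.4 to 29.7, from 281 reads) and 63.0 rpm in CC (58.4 to 68.0, from 679 reads). The intervals of RR and CC overlapped each other, and neither overlapped that of Mock. In RNA from a whole culture, fewer cells with a miRNA and less of it per cell cannot be told apart. Its partner arm miR-193b-5p had the same order of Mock against the others, at 23.2 rpm in RR (20.4 to 26.3), 10.4 rpm in Mock (8.59 to 12.6) and 19.3 rpm in CC (16.8 to 22.1).

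miR-365a/b-3p had the most reads of the members in each library, with miR-193b-3p close behind in RR and CC. On the scale as deposited miR-365a/b-3p varied least among the members that could be measured. It stood at 61.8 rpm in RR (57.1 to 66.7), 49.4 rpm in Mock (45.2 to 53.8) and 66.0 rpm in CC (61.3 to 71.1). Mock was again the lowest of the 3, by a smaller margin. miR-365a-5p, which only the chromosome 16 hairpin gives, stood at 28.5 rpm in RR (25.3 to 31.9), 16.2 rpm in Mock (13.8 to 18.8) and 27.2 rpm in CC (24.2 to 30.5). miR-365b-5p, which only the chromosome 17 hairpin gives, had 1 read in RR, 0 in Mock and 4 in CC. The level of MIR365B transcripts cannot be read from this arm, as the loading of its hairpin was not measured.

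miR-193a-5p had another order, with RR the highest and CC the lowest. Its level was 22.0 rpm in RR (19.2 to 25.0, from 230 reads), 16.2 rpm in Mock (13.8 to 18.8, from 172 reads) and 13.2 rpm in CC (11.1 to 15.5, from 142 reads). The intervals of RR and CC did not overlap, and that of Mock overlapped that of CC. miR-193a-3p had 0 reads in RR, 1 read in Mock (0.0940 rpm) and 0 reads in CC. Taking 3 reads as the limit that a count of 0 allows gave 0.286 rpm in RR and 0.279 rpm in CC, and the upper ends of the two-sided Poisson intervals were 0.352 and 0.343 rpm. Differences of miR-193a-3p between libraries were thus not detectable at this depth.

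**Figure D1:**
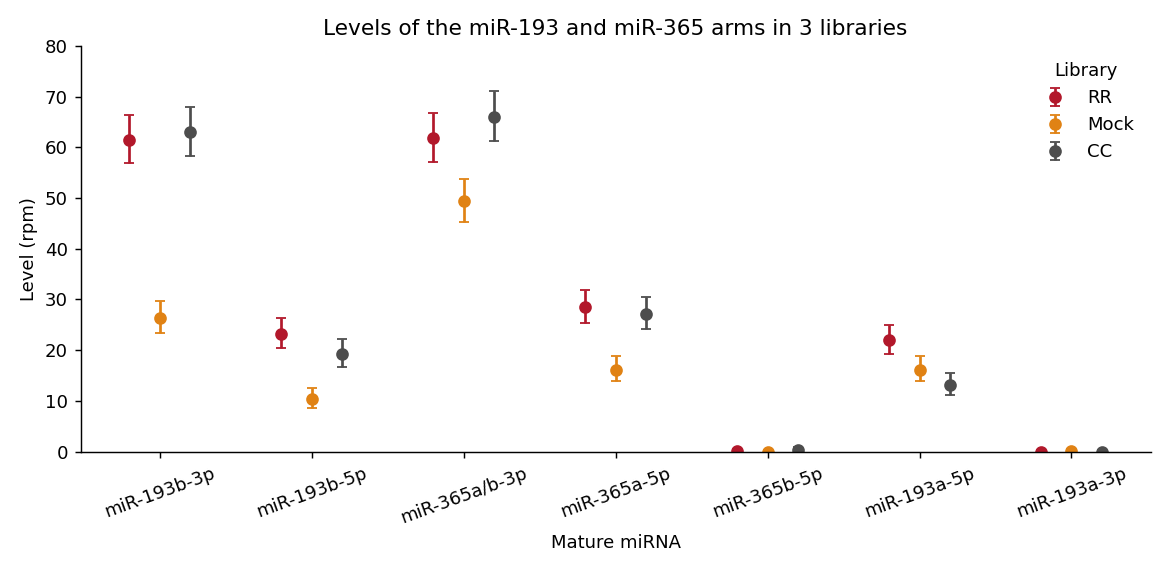
Level in rpm of each arm of the miR-193 and miR-365 hairpins in the RR, Mock and CC libraries, 1 library each, with exact 95% Poisson intervals of the reads. The miR-193b arms and miR-365a-5p are lowest in Mock, miR-193a-5p is highest in RR at 22.0 rpm, and miR-193a-3p and miR-365b-5p lie near 0.

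RR over CC asks whether radioresistant cells differ from untreated ones. Among the 4 members whose mean reached 10 rpm, 0 stood 2-fold or more apart, beside 3 of 208 miRNAs past the same filter, which is 1.44%. miR-193a-5p, the TP73-targeting arm from chromosome 17, was 1.67-fold higher in RR (1.35 to 2.07), a log2 ratio of 0.69 that only 16 of the 208 miRNAs exceeded. The median miRNA was itself 1.29-fold higher in RR, or 0.36 on the log2 scale, and miR-193a-5p stood 0.34 above that median. With median-ratio scaling the log2 ratio of miR-193a-5p was 0.33. It was 0.40 with the 10 most abundant miRNAs left out of the scale and 0.38 as a fraction of all miRNA reads. Folds come from the values as deposited, and log2 ratios were taken after adding 1 rpm.

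The miR-193b arms, miR-365a-5p and the shared row of miR-365a/b-3p lay under the median shift in RR over CC. The ratio was 0.975 for miR-193b-3p (0.874 to 1.09) and 0.936 for miR-365a/b-3p (0.840 to 1.04), and both intervals included 1. Relative to the median of all 208 miRNAs, miR-193b-3p lay 0.39 and miR-365a/b-3p 0.45 below on the log2 scale, and 16 and 9 miRNAs had lower ratios than they did. miR-193b-5p was at 1.20-fold (0.994 to 1.45) and miR-365a-5p at 1.05-fold (0.887 to 1.23). The log2 ratio of miR-193b-5p, 0.25, turned to -0.11 with median-ratio scaling, -0.05 with the 10 most abundant miRNAs left out of the scale and -0.07 as a fraction of all miRNA reads, and that of miR-365a-5p, 0.06, turned to -0.31, -0.24 and -0.26. Under the same scalings miR-193b-3p went from -0.04 to -0.41, -0.35 and -0.37. miR-365a/b-3p went from -0.09 to -0.47, -0.41 and -0.42. These scalings moved the median of all 208 from 0.36 to -0.02, 0.04 and 0.03. The split of all miRNAs past 2-fold was 2 higher and 1 lower as deposited, and 0 higher and 2 lower under each of these scalings.

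Mock over CC asks how the library labelled Mock differs from the untreated one. miR-193b-3p was 2.39-fold lower in Mock (2.07 to 2.75), a log2 ratio of -1.22, and only 3 of the 208 miRNAs had a lower one. Among the 4 members it alone passed 2-fold, beside 8 of 208 miRNAs lower by 2-fold or more, which is 3.85%. miR-193b-5p was 1.85-fold lower (1.46 to 2.35), with 12 miRNAs below it. miR-365a-5p was 1.68-fold lower (1.39 to 2.04), with 17 below it, and miR-365a/b-3p had a ratio of 0.748 (0.667 to 0.838), with 39 below it. miR-193a-5p stood at 1.23-fold (0.977 to 1.54), an interval that includes 1, and its log2 ratio of 0.28 lay at the median of all miRNAs, 0.28.

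The scale changed the size of these values and, for miR-193a-5p, the sign. miR-193b-3p had log2 ratios of -1.52 with median-ratio scaling, -1.57 with the 10 most abundant miRNAs left out and -1.72 as a fraction of all miRNA reads, and miR-193b-5p then also passed 2-fold, at -1.11, -1.16 and -1.31. miR-193a-5p had -0.01, -0.05 and -0.20 under the same scalings. Over all 208 miRNAs the split was 25 higher and 8 lower as deposited, 10 and 18 with median-ratio scaling, 10 and 19 without the 10 most abundant and 7 and 31 as a fraction of all miRNA reads.

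**Figure D2:**
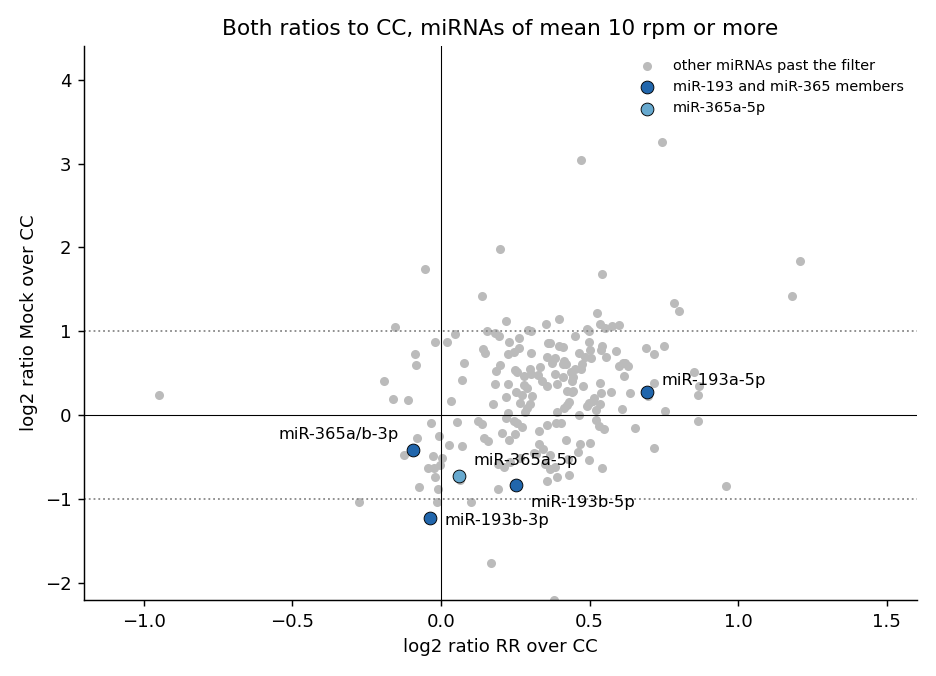
log2 ratio RR over CC (x axis) against log2 ratio Mock over CC (y axis) for the 208 miRNAs whose mean reached 10 rpm, of which 4 lie outside the axes, with dotted lines at 2-fold. The miR-193b arms, miR-365a-5p and miR-365a/b-3p sit in the lower part, between -0.09 and 0.25 on the x axis, with miR-193b-3p at -1.22 on the y axis, whereas miR-193a-5p sits to the right at 0.69 on the x axis.

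Ratios to Mock moved with the base composition of a miRNA, and the members past the filter lie in the groups of lowest and of highest GC content. GC content was 59.1% for miR-193b-3p, miR-193b-5p and miR-193a-5p, 56.5% for miR-365a-5p and 31.8% for miR-365a/b-3p. Over the 208 miRNAs the 80 of lowest GC content had a median log2 ratio Mock over CC of 0.65 and the 63 of highest one of -0.29 (Spearman's rho -0.55, over miRNAs of the same libraries, as a description). miR-365a/b-3p, at -0.41, was lower than 75 of the 80 in its low-GC group. miR-193b-3p was lower than 61 of the 63 in its high-GC group, and miR-193b-5p lower than 55. miR-193a-5p, of the same GC content, was higher than 53 of those 63. With a linear GC trend removed, miR-193b-3p rose from -1.22 to -0.96 and no longer passed 2-fold. miR-365a/b-3p fell from -0.41 to -0.94, still short of 2-fold. miR-193b-5p then stood at -0.57, miR-365a-5p at -0.53 and miR-193a-5p at 0.54. The median of all miRNAs was then 0.32, and 5 of the others lay below miR-193b-3p and 7 below miR-365a/b-3p.

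**Figure D3:**
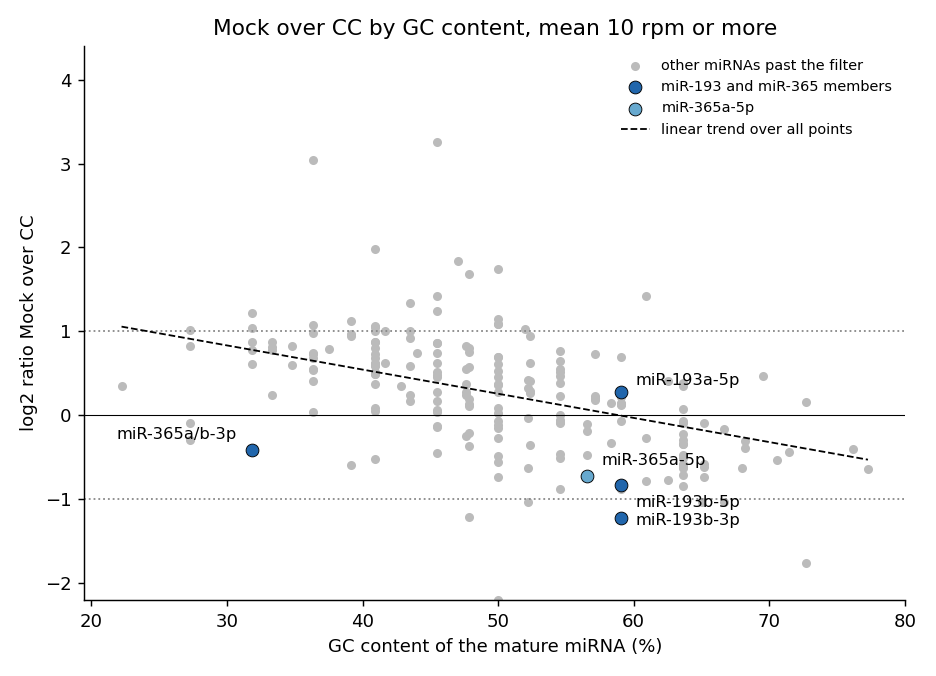
log2 ratio Mock over CC (y axis) against the GC content of the mature miRNA in percent (x axis) for the same 208 miRNAs, of which 3 lie outside the axes, with the linear trend dashed and 2-fold dotted. miR-365a/b-3p at 31.8% and miR-193b-3p at 59.1% GC lie far below the trend, and miR-193a-5p lies above it.

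RR over Mock sets the library labelled RR against the one labelled Mock, whose exposure the labels do not settle. miR-193b-3p was 2.33-fold higher in RR (2.02 to 2.69) and miR-193b-5p 2.22-fold higher (1.77 to 2.81), so that 2 of the 4 members were higher by 2-fold or more, beside 17 of 208 miRNAs, which is 8.17%. Of those 17, 13 were among the 63 miRNAs of highest GC content, which include both miR-193b arms, and 1 among the 80 of lowest. The median log2 ratio was 0.53 in the high-GC group and -0.29 in the low-GC group (Spearman's rho 0.60 over the 208, as a description). miR-365a-5p was 1.76-fold higher (1.45 to 2.13), miR-193a-5p 1.36-fold (1.11 to 1.66) and miR-365a/b-3p 1.25-fold (1.11 to 1.41), and each of these intervals excluded 1. With a pseudocount of 10 rpm neither miR-193b arm passed 2-fold, at log2 ratios of 0.97 for miR-193b-3p and 0.70 for miR-193b-5p. This comparison shares the Mock library with Mock over CC, so the low level in Mock enters both. With the GC trend removed, none of the 4 members passed 2-fold, with log2 ratios of 0.90 for miR-193b-3p, 0.88 for miR-365a/b-3p, 0.80 for miR-193b-5p and 0.14 for miR-193a-5p. The split of all miRNAs past 2-fold was 17 higher and 10 lower as deposited, 25 and 8 as a fraction of all miRNA reads, and 7 and 7 with the GC trend removed.

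**Figure D4:**
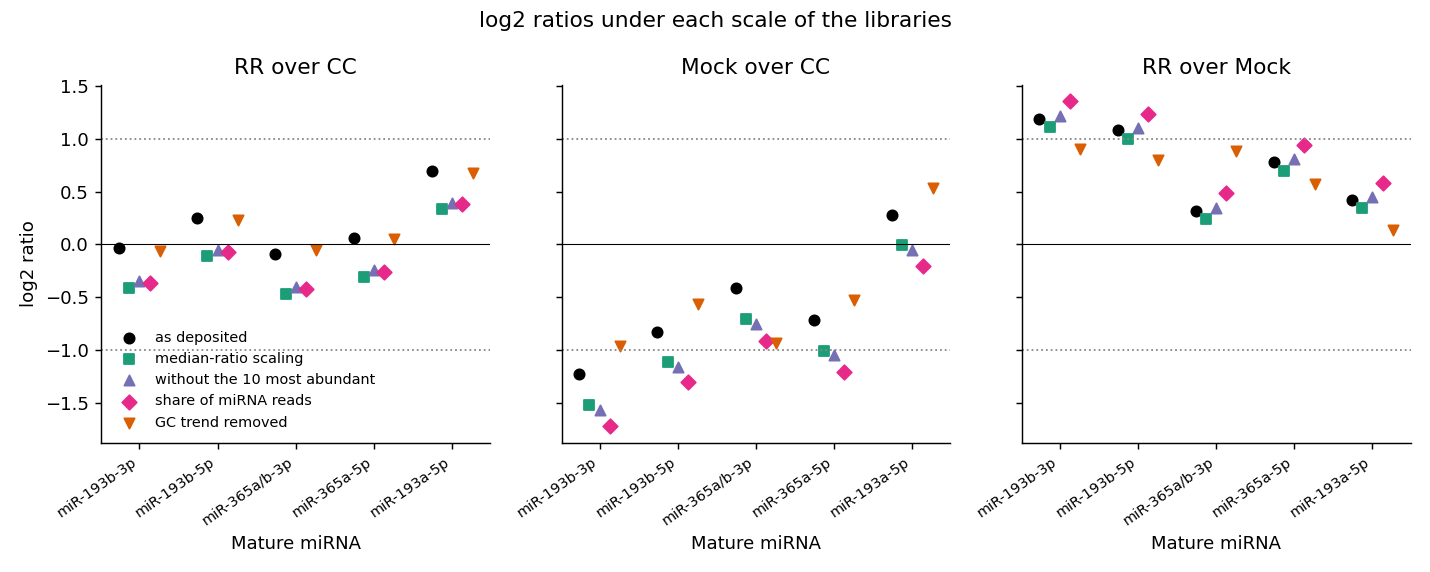
log2 ratio (y axis) of the 4 members past the filter and of miR-365a-5p in the comparisons RR over CC, Mock over CC and RR over Mock, under each scale of the libraries, with dotted lines at 2-fold. miR-193b-3p lies past 2-fold in Mock over CC under each scale shown but the removal of the GC trend, where it stands at -0.96.

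Ratios between members within a library do not depend on how libraries are scaled. They are ratios of reads, and as ligation captures sequences unequally they are compared between libraries and not read as ratios of molecules. Arms of chromosome 16 were set against miR-193a-5p, the only chromosome 17 arm with enough reads, so the ratios that follow share their denominator and are not independent. miR-193b-5p over miR-193a-5p, the same arm of both paralogues at equal GC content, was 1.06 in RR (0.879 to 1.27), 0.645 in Mock (0.504 to 0.824) and 1.46 in CC (1.18 to 1.83). It was thus 2.27-fold lower in Mock than in CC (1.63 to 3.17) and 1.39-fold lower in RR than in CC (1.04 to 1.85). miR-365a-5p over miR-193a-5p followed the same order, at 1.30 in RR, 1.00 in Mock and 2.06 in CC, with Mock 2.06-fold lower than CC (1.53 to 2.79) and RR 1.59-fold lower (1.21 to 2.09). miR-193b-3p over miR-193a-5p was 2.80 in RR, 1.63 in Mock and 4.78 in CC, 2.93-fold lower in Mock than in CC (2.23 to 3.84) and 1.71-fold lower in RR (1.34 to 2.18). The other arm specific to chromosome 17, miR-365b-5p, was too thin to compare: miR-365a-5p over miR-365b-5p in RR relative to CC was 4.07, with an interval of 0.399 to 201.

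Within the chromosome 16 cluster the products kept closer ratios, with an exception in Mock. miR-193b-5p over miR-365a-5p was 0.815 in RR, 0.645 in Mock and 0.710 in CC. The ratio of Mock to CC, 0.909, had an interval of 0.667 to 1.24. miR-193b-3p over miR-365a/b-3p was 0.995 in RR (0.891 to 1.11), 0.535 in Mock (0.461 to 0.620) and 0.955 in CC (0.858 to 1.06). In RR and in CC these abundant arms were thus not distinguishable, while in Mock miR-193b-3p had the fewer reads, 1.78-fold lower against miR-365a/b-3p than in CC (1.49 to 2.14). The pair differs in GC content, 59.1% and 31.8%, and the row of miR-365a/b-3p holds the product of both clusters. The part of either in this ratio was not tested.

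The arms of 1 hairpin kept their order in all libraries. The 3p arm of miR-193b had 2.65 times the reads of its 5p arm in RR (2.28 to 3.08), 2.53 times in Mock (2.03 to 3.18) and 3.26 times in CC (2.79 to 3.83), and the intervals of the ratio of these ratios included 1 for each pair of libraries. miR-193a had the opposite order of arms in reads. Its 5p arm had 230 reads against 0 of the 3p arm in RR, 172 against 1 in Mock and 142 against 0 in CC. The ratio in Mock, 172, had an interval of 30.5 to 6833. Over the 3 libraries miR-193b-3p had 1604 reads and miR-193a-3p 1 read, so reads with the shared miR-193 seed came nearly all from MIR193B. The 3p row of miR-365 over miR-365a-5p was 2.17 in RR (1.89 to 2.50), 3.05 in Mock (2.56 to 3.65) and 2.43 in CC (2.11 to 2.79). In that ratio RR was lower than Mock, at 0.711 (0.567 to 0.891), and Mock higher than CC, at 1.26 (1.005 to 1.58). For RR over CC it was 0.895 (0.734 to 1.09). The 3p row holds the product of both clusters, and its GC content is 31.8% against 56.5% for miR-365a-5p. The part of either in this ratio was not tested.

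**Figure D5:**
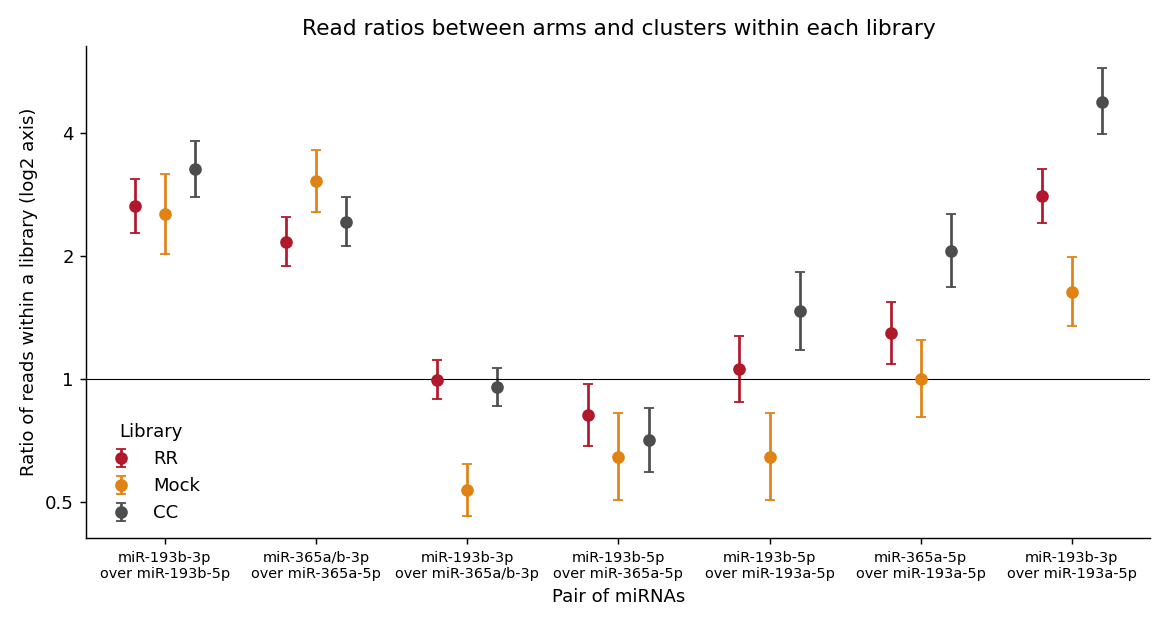
Ratio of reads between 2 miRNAs of the same library (y axis, log2 axis) for 7 pairs in RR, Mock and CC, with exact 95% intervals. Ratios of a chromosome 16 arm to miR-193a-5p, at the right, are lowest in Mock and highest in CC, while miR-193b-3p over its own 5p arm, at the left, overlaps between libraries.

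The miRNAs with the pattern most like each member were found by the distance between the pairs of log2 ratios RR over CC and Mock over CC, over the 3 libraries and among the 208 miRNAs. Nearest to miR-193b-3p were miR-139-5p, from an intron of PDE2A, at 74.1 rpm in RR, 36.0 rpm in Mock and 74.7 rpm in CC (distance 0.19), then miR-296-5p (0.24) and miR-877-5p (0.31). Nearest to miR-193b-5p were miR-205-5p, the stratified epithelial miRNA, with a log2 ratio Mock over CC of -0.87 (distance 0.07), then miR-149-5p (0.11) and miR-339-5p (0.17). miR-193a-5p was closest to miR-769-5p (0.04), miR-151a-3p (0.06) and miR-99b-3p (0.11), and miR-365a/b-3p to miR-3184-3p (0.06), miR-132-3p (0.10) and miR-455-3p (0.13). The nearest miRNAs of the miR-193b arms had GC contents of 52.2% to 66.7% for the 3p arm and 54.5% to 65.2% for the 5p arm. Those of miR-193a-5p had 52.4% to 63.6%. Those of miR-365a/b-3p had 50% to 56.5%, unlike its own 31.8%.

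Other miRNAs known to target the same messenger RNAs had higher Mock over CC ratios than the miR-193b arms, as did most miRNAs. Of the 208 past the filter, 204 lay above miR-193b-3p and 195 above miR-193b-5p. Of 12 miRNAs listed as repressors of CCND1, 5 passed the filter, with a median log2 ratio Mock over CC of 0.60, beside 0.28 for all 208 miRNAs. Among them 2 were higher by 2-fold or more and 0 lower, beside 25 of 208 higher (12%) and 8 lower. These were miR-16-5p at 51.7 rpm in RR, 127 rpm in Mock and 46.8 rpm in CC, and miR-20a-5p, of the miR-17 family, at 560, 1049 and 481 rpm. let-7b-5p, at 8194 rpm in RR, 5188 rpm in Mock and 5670 rpm in CC, had a log2 ratio Mock over CC of -0.13. Of 5 miRNAs listed as repressors of MCL1, 3 passed the filter, with a median of 0.73 and 0 past 2-fold. The medians in RR over CC were 0.22 and 0.41, that of all miRNAs being 0.36, with 0 members past 2-fold in either list. In RR over Mock they were -0.68 and -0.27, beside 0.06, and miR-16-5p was the 1 miRNA lower by 2-fold or more, beside 10 of 208 miRNAs (4.81%). The listed miRNAs past the filter had GC contents of 33.3% to 50%, against 59.1% for the miR-193b arms, and the low-GC group of all miRNAs had a median Mock over CC of 0.65. The part of base composition in the contrast with the miR-193b arms was not tested. Levels of CCND1, MCL1 and other messenger RNAs were not analysed here.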

How the data were processed

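Small RNA libraries were made by adapter ligation and PCR from total RNA and sequenced on an Illumina NovaSeq, per the labels' protocols. Bowtie and GRCh38 are named in the submitters' processing notes without a role, and how reads matching several miRNAs were assigned is not stated there. The deposited table, called TPM by the authors, behaves as RPM: 100% of the values were whole multiples, within 0.01 of a read, of 1 step per library that did not depend on length, so reads were recovered and rounded.

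Columns were tied to libraries by the treatment tag. No count model was fitted, as each group had 1 library. Levels have exact Poisson intervals and ratios have exact intervals derived from Clopper-Pearson limits. Ratios of ratios have exact conditional intervals. All are at 95% and cover counting error. Log2 ratios used a pseudocount of 1 rpm, the filter was a mean of 10 rpm and the threshold 2-fold, applied to all 1149 miRNAs. These rules were tried on simulated reads with planted changes and counting error only. That trial held no variation between libraries and no GC trend, so it does not bear on either. The miRNAs named were the 5 members, the other arms of their hairpins, the 3 nearest in pattern to each member past the filter, and listed CCND1 or MCL1 repressors past 2-fold. let-7b-5p and the marker miRNAs were named after their values were seen. Members and lists were chosen with earlier results of these data known. The work used scipy 1.17.1, numpy 2.4.6, pandas 2.3.3 and matplotlib 3.10.9 under Python 3.11.15.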

Additional observations from a re-analysis of the deposited data

How the results depend on the processing

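The number of members past 2-fold in RR over CC was 0, and 1 at a threshold of 1.5-fold (miR-193a-5p). In Mock over CC it was 1, and 2 at 1.5-fold, with median-ratio scaling, without the 10 most abundant miRNAs or as a fraction of all miRNA reads, but 0 at 4-fold and with the GC trend removed. In RR over Mock it was 2, and 0 with a pseudocount of 10, at 4-fold and with the GC trend removed. A filter at a mean of 100 rpm left no member. Over all miRNAs, counts past 2-fold of 3 in RR over CC, 33 in Mock over CC and 27 in RR over Mock became 1, 16 and 16 with a pseudocount of 10, 7, 57 and 50 at a mean of 1 rpm, 8, 60 and 57 with no filter, 0, 12 and 11 at a mean of 100 rpm, 30, 96 and 76 at 1.5-fold, and 1, 5 and 5 at 4-fold. With the GC trend removed they were 3, 21 and 14. No member past 2-fold changed sign under any of these. Within a library, adding 1 rpm moved 4 of 25 ratios beyond their interval, all with an arm of 4 reads or fewer. No paired analysis was possible because each group has 1 library. Depth limits miR-193a-3p and miR-365b-5p, with 1 and 5 reads in all.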
